A study of Mus musculus with 38 samples.

Results

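The 9 genes described here encode surface molecules through which antigen-presenting cells deliver or restrain the second signal of T cell activation: Cd80, Cd86, Cd40, Cd83, Cd274, Pdcd1lg2, Icosl, Tnfsf4 and Cd200. They were taken as a fixed list of gene symbols, which was chosen with earlier results of these data known. Each was represented by the probe set with the highest mean over all 38 arrays, so no difference between populations entered the choice of probe set. All 9 were measured among 19937 genes with a probe set of their own. The arrays, Affymetrix Mouse Gene 1.0 ST, held RNA of 13 sorted CD11b+ myeloid populations, with 3 arrays each except dermal P1 after DNFB, which had 2. All mice were female wild-type C57BL/6 animals aged 6 weeks, and the replicates came from separate pools of mice.

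Ly6C high monocytes were sorted from blood. Ear dermis gave 5 CD24- populations at steady state besides its dendritic cells (DCs). P1 was CD64 low, Ly6C high, CCR2+ and MHC class II-. P2 was CD64+, Ly6C high, CCR2+ and class II+, and P3 was CD64+, Ly6C low, CCR2+ and class II+. P4 and P5 were the macrophage gates, CD64+, Ly6C- and CCR2-, without and with class II respectively. Dermal DCs were CD24-, CD64-, Ly6C- and class II+. P1, P2 and the dermal DCs were sorted again 3 days after 10 µl of 0.5% dinitrofluorobenzene (DNFB), a contact hapten in acetone and olive oil, had been applied. The steady-state animals were untreated, so hapten and vehicle cannot be told apart. Cutaneous lymph nodes gave migratory DCs, CD11c+, class II high, CD24-, Ly6C- and CD64-, at steady state and after DNFB. They also gave Ly6C+ CD64+ cells of the same class II high gate after DNFB. The labels call these last cells a migratory monocyte, a non-DC and a DC in different fields, so they are named here by their gate, node CD64+ cells.

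T cells need a costimulatory signal beside the antigen receptor signal. CD80 and CD86 give it through CD28 and take it away through CTLA-4. CD40 receives the signal of activated T cells through CD40 ligand and drives the maturation of DCs through NF-kB. CD83 is a maturation marker that stabilises class II and CD86 at the surface. ICOS ligand (Icosl) and OX40 ligand (Tnfsf4) sustain T cells that have already been activated. PD-L1 (Cd274) and PD-L2 (Pdcd1lg2) engage PD-1 and restrain T cells, and CD200 restrains myeloid cells that carry its receptor. Skin DCs take up antigen in the dermis, mature and travel through lymph to the draining node, where these ligands meet T cells.

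Upstream sequence is shown for the members whose levels were highest in the node populations and for which the RefSeq promoter table (GRCm38.p6) held an entry. The table matched 5 of the 9 members. Each line gives the 250 bases before the annotated start, 5′ to 3′ on the gene's strand, with capitals marking motif matches.
Cd274: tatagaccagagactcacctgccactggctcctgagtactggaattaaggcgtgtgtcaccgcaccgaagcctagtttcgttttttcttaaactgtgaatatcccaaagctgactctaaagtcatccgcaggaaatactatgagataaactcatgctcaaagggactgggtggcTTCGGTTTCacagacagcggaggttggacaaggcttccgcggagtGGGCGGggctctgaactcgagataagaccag
Pdcd1lg2: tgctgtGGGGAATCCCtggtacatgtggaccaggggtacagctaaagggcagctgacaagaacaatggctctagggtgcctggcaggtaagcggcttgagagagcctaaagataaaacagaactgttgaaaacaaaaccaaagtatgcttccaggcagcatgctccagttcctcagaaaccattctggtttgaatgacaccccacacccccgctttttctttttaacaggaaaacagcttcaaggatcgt
Icosl: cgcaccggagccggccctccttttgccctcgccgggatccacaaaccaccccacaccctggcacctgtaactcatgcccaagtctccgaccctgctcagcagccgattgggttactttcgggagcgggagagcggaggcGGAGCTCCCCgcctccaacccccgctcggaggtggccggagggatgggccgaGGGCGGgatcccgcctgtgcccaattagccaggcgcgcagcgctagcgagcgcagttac
Cd200: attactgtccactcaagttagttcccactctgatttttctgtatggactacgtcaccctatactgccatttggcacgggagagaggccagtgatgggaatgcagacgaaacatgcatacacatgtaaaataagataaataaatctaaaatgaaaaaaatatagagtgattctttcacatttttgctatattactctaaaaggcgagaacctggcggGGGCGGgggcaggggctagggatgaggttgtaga

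The Cd274 window is chr19:29367188-29367437 on the plus strand, and the Pdcd1lg2 window is chr19:29410669-29410918, also on the plus strand of the same chromosome. The Icosl window is chr10:78069118-78069367 on the plus strand and the Cd200 window is chr16:45409054-45409303 on the minus strand. The Cd274 window lies inside the annotated span of its own gene. Matches were searched on both strands. In Cd274 the capitals mark an IRF core (GAAANNGAA) on the minus strand at -76 to -68, counted from the start, and a GC box (GGGCGG) at -31 to -26. Pdcd1lg2 had an NF-kB consensus at -244 to -235, and Icosl had one on the minus strand at -111 to -102 and a GC box at -59 to -54. Cd200 had a GC box at -34 to -29. Among 32851 promoters of this length, 7.13% held the IRF core, 7.25% the NF-kB consensus and 32.7% the GC box. The AP-1 motif (TGANTCA), in 6.75% of promoters, and the GAS motif (TTCNNNGAA), in 7.02%, were absent from these 4 windows. These letter matches describe the windows only.

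Values are the deposited log2 intensities. A value under 4.31, the 40th percentile of all values of the tested genes, is called low signal below, and no detection calls were used here. Sorted cells are a bulk sample, so fewer cells of a type and less RNA per cell cannot be told apart. The mean of 7 macrophage markers was 9.36 to 10.43 on the P4 and P5 arrays and 4.21 to 6.15 on all dermal DC and node DC arrays, and the mean of 7 DC markers was 6.96 to 8.27 on the dermal DC and node DC arrays. Node CD64+ cells carried both lists, with means of 8.03 to 8.95 for macrophage markers and 6.91 to 7.72 for DC markers. The dermal sorts also carried keratinocyte RNA: the mean of 12 markers was 5.20 to 8.06 on dermal arrays, 4.30 to 4.46 on blood arrays and 4.37 to 4.74 on node arrays. Replicate arrays correlated at 0.947 to 0.993. The node CD64+ replicate 3 read lowest of its group for all 9 members.

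**Figure D1:**
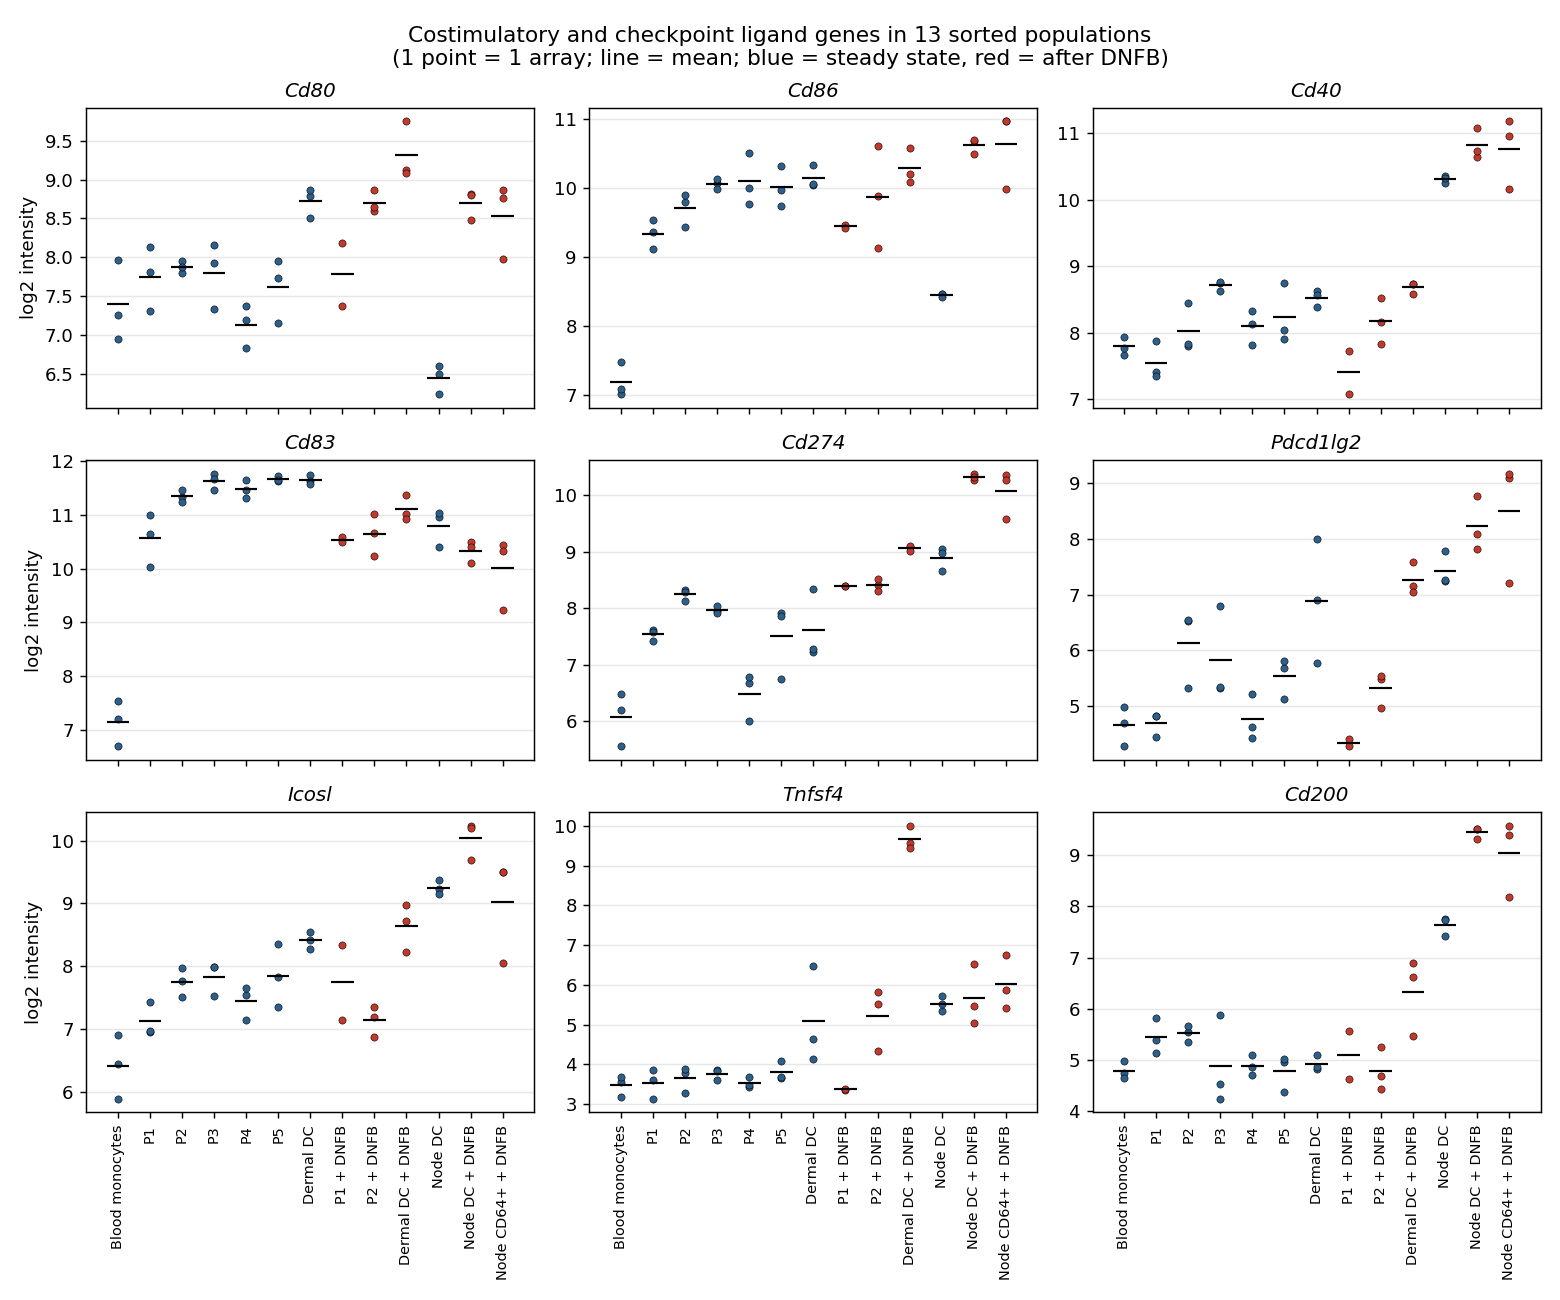
Log2 intensity (vertical axis) of each member on every array of the 13 populations (horizontal axis), with a line at each mean, blue for steady state and red for DNFB. Cd40 and Cd200 were highest in the 3 node populations, Tnfsf4 stood at 9.45 to 10.00 only on the dermal DC arrays after DNFB, and Cd80 and Cd86 were low in steady-state node DCs.

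Cd80, the B7 ligand with the higher affinity for CTLA-4, had its highest mean in dermal DCs after DNFB and its lowest in steady-state node DCs. It read 9.75, 9.12 and 9.09 in dermal DCs after DNFB and 8.79, 8.51 and 8.86 in dermal DCs at steady state. In node DCs it read 6.60, 6.24 and 6.50 at steady state and 8.81, 8.48 and 8.81 after DNFB. On the probe set used, steady-state node DCs lay below every other array of the study. Node DCs after DNFB lay below every dermal DC array after DNFB. P2 gave 7.80, 7.95 and 7.87 at steady state and 8.59, 8.65 and 8.86 after DNFB, without overlap. The means of blood monocytes, P1, P3, P4, P5 and P1 after DNFB lay between 7.13 and 7.80 and overlapped one another in the order of the levels. Node CD64+ cells stood at 8.53 ± 0.49 (SD, n = 3). A second Cd80 probe set, not used for the tests, had means of 5.32 in steady-state node DCs, 7.02 in node DCs after DNFB and 7.72 and 8.50 in dermal DCs without and with DNFB. On it steady-state node DCs (5.02 to 5.72) and blood monocytes (5.12 to 5.77) overlapped.

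Cd86, the other CD28 and CTLA-4 ligand, was lowest in blood monocytes, at 7.46, 7.01 and 7.09. Steady-state node DCs came next, at 8.47, 8.46 and 8.42. Neither group overlapped the one above it. All dermal populations had means between 9.33 and 10.29, from P1 at steady state to dermal DCs after DNFB, and no pair of neighbours in that order separated. Node DCs after DNFB read 10.68, 10.49 and 10.69, and node CD64+ cells read 10.97, 10.97 and 9.98. The third node CD64+ array fell among the dermal values, and the other arrays of both groups lay near the top of the range.

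Cd40, the receptor for CD40 ligand, split the study by tissue. It read 10.24, 10.35 and 10.32 in steady-state node DCs, 10.63, 10.74 and 11.07 in node DCs after DNFB, and 10.95, 11.18 and 10.16 in node CD64+ cells. No array of another population exceeded 8.76, the highest P3 value, and this was the only break between neighbours in the order of the 13 means. The dermal and blood means ran from 7.40 in P1 after DNFB to 8.72 in P3, with dermal DCs at 8.52 ± 0.13 at steady state and 8.68 ± 0.09 after DNFB (SD, n = 3 each).

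Cd83, a membrane protein of maturing DCs, showed another pattern. Blood monocytes read 7.54, 6.70 and 7.21, and every dermal and node array read at least 9.24. The highest means were those of P5 (11.66 ± 0.05), steady-state dermal DCs (11.64 ± 0.09) and P3 (11.63 ± 0.16; SD, n = 3 each), which overlapped. Node DCs read 10.96, 11.03 and 10.41 at steady state and 10.49, 10.10 and 10.41 after DNFB. Node CD64+ cells had the lowest mean outside blood, 10.00 ± 0.67 (SD, n = 3).

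Cd274, which encodes PD-L1, was lowest in blood monocytes (6.49, 5.55 and 6.20) and P4 macrophages (6.68, 6.79 and 6.00), which overlapped. In dermal DCs it read 8.35, 7.22 and 7.28 at steady state and 9.08, 9.10 and 9.0 after DNFB. In node DCs it read 8.66, 9.05 and 8.97 at steady state and 10.38, 10.27 and 10.32 after DNFB. Within each DC population the arrays after DNFB lay above all steady-state arrays, although the first steady-state dermal DC array stood well above the other two. P2 stood at 8.24 ± 0.11 at steady state and 8.41 ± 0.10 after DNFB, and node CD64+ cells read 10.36, 10.28 and 9.58. Of the 12 pairs of neighbours in its order of means, 4 did not overlap, and the share over all genes was not counted. These included small gaps: P1 after DNFB lay 0.15 above steady-state P2, and steady-state P2 lay 0.27 above P3.

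Pdcd1lg2, which encodes PD-L2, varied more between replicates. It read 5.76, 7.99 and 6.90 in steady-state dermal DCs and 7.16, 7.04 and 7.59 in dermal DCs after DNFB. Node DCs gave 7.79, 7.25 and 7.26 at steady state and 8.09, 7.81 and 8.77 after DNFB. The DC populations of dermis and node overlapped at steady state. Node CD64+ cells read 9.10, 9.17 and 7.21, and P2 after DNFB read 5.47, 4.97 and 5.53. P1, P1 after DNFB, P4 and blood monocytes had means of 4.34 to 4.76, near the low-signal bound.

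Icosl, the ligand of ICOS, was highest in node DCs, at 10.24, 9.69 and 10.20 after DNFB and 9.23, 9.15 and 9.37 at steady state, without overlap. Node CD64+ cells followed at 9.51, 9.51 and 8.05. Dermal DCs stood at 8.41 ± 0.14 at steady state and 8.64 ± 0.39 after DNFB (SD, n = 3 each), and these arrays overlapped. The other dermal populations had means of 7.12 to 7.85, and blood monocytes read 6.90, 6.43 and 5.89, below every P1 array.

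Tnfsf4, which encodes OX40 ligand, was at low signal in 7 of the 13 populations: blood monocytes, P1 with and without DNFB, and P2, P3, P4 and P5 at steady state. It read 4.63, 6.48 and 4.14 in steady-state dermal DCs and 10.00, 9.57 and 9.45 in dermal DCs after DNFB. P2 read 3.28, 3.79 and 3.89 at steady state and 5.53, 4.34 and 5.82 after DNFB. The node populations read 5.33, 5.73 and 5.52 in steady-state node DCs, 5.46, 5.04 and 6.53 after DNFB, and 5.87, 6.75 and 5.42 in node CD64+ cells. Each of them overlapped steady-state dermal DCs and P2 after DNFB. The lowest array of dermal DCs after DNFB lay above every array of the other populations. No order is read among the low-signal populations.

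Cd200, an inhibitory ligand for myeloid cells, had the node populations on top. Node DCs read 7.42, 7.74 and 7.74 at steady state and 9.51, 9.31 and 9.51 after DNFB, and node CD64+ cells read 9.39, 9.57 and 8.17. Dermal DCs read 4.83, 5.11 and 4.86 at steady state and 6.89, 6.63 and 5.47 after DNFB. No node array overlapped a dermal or blood array. The 9 populations other than these and dermal DCs after DNFB had means of 4.78 to 5.53.

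Across the 13 group means, which share arrays normalised together, Cd40 followed Cd200 (Pearson r = 0.916) and Pdcd1lg2 (0.910), and Pdcd1lg2 followed Icosl (0.892). Cd80 and Cd86 correlated at 0.611, Cd80 and Cd40 at 0.135, and Cd83 and Cd200 at -0.122. These values describe 13 points in which the node populations stand apart. Among 2607 genes whose means spanned at least 2 log2 units, the pattern most like that of Cd40 was Osbpl3 (0.984), that of Cd200 was Gpr4 (0.983) and that of Pdcd1lg2 was the chemokine gene Ccl22 (0.968). Cd83 was most like the metallothionein genes Mt2 (0.963) and Mt1 (0.961), Cd274 like Fabp5 (0.956) and Traf1 (0.914), and Icosl like Tbrg1 (0.947). Tnfsf4 was most like Plekha5 (0.942), Klri2 (0.930) and Cd3d (0.925). The Tnfsf4 pattern rests largely on dermal DCs after DNFB, whose mean lay 3.66 above the next, with 7 of 13 means at low signal. Cd3d was at low signal in every population but dermal DCs after DNFB. The Cd83 pattern rests largely on blood monocytes, whose mean lay 2.86 below the next. The nearest genes were less close for Cd80 (Ciita, the class II transactivator gene, 0.846) and Cd86 (Slc7a5, 0.846).

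The first comparison asks how the ligands differ between blood monocytes and the P1 monocytes of the dermis. P1 came from digested ear and the monocytes from blood, so tissue and cell preparation cannot be told apart. Cd83 was 10.7-fold higher in P1 (log2 difference 3.41, SE 0.25, adjusted p = 8.6e-11), Cd86 was 4.43-fold higher (2.15, SE 0.26, adjusted p = 9.0e-07) and Cd274 was 2.74-fold higher (1.45, SE 0.27, adjusted p = 0.00044). Thus 3 of the 9 members passed, all higher, where 12.6% of all genes were called and 5.21% of all genes were higher in P1. At an unadjusted p under 0.05 there were 4 members, the added one being Icosl, 0.71 log2 units higher in P1 (adjusted p = 0.18). Cd200 was 0.65 higher (0.29), and neither of these overlapped between the groups or passed. Cd80, Cd40, Pdcd1lg2 and Tnfsf4 overlapped. The second Cd80 probe set, not tested alone, read 5.12 to 5.77 in blood and 6.52 to 7.47 in P1, without overlap. The keratinocyte and fibroblast marker means also differed between these groups, the latter being 4.17 to 4.29 in blood and 6.34 to 10.16 in P1. With both as covariates Cd83 was the single call left: the difference was 1.64 (SE 0.56, adjusted p = 0.18) for Cd86 and 1.05 (SE 0.59, 0.58) for Cd274, smaller and with wider errors.

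Between the dermal monocyte stages no member passed. For P2 against P1 the background was 2.09% of genes, and limma gave 0 members at an adjusted p under 0.05 and 3 at an unadjusted p under 0.05. Those 3 were higher in P2: Pdcd1lg2 by 1.44 log2 units (adjusted p = 0.15), Cd83 by 0.78 (0.14) and Cd274 by 0.71 (0.26). P3 against P2 gave 0 members, 1 at an unadjusted p under 0.05, with 0.371% of genes called. That member was Cd40, 8.44, 7.79 and 7.83 in P2 and 8.75, 8.76 and 8.63 in P3. For dermal DCs against P3, where 1.8% of genes were called, limma gave 0 members and 3 at an unadjusted p under 0.05. Cd80 was 0.92 log2 units higher in the DCs (adjusted p = 0.093) and passed when Cd80 was averaged over its probe sets (0.050). Tnfsf4 was 1.33 higher (0.13) and passed without the third steady-state DC array (0.029).

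The macrophage gates P4 and P5 differ by surface class II. Cd274 was 7.92, 6.75 and 7.86 in P5 and 6.68, 6.79 and 6.00 in P4, a difference of 1.02 log2 units that did not pass (adjusted p = 0.11), and the groups overlapped through the second P5 array. Without that array it passed (1.40, adjusted p = 0.0069). In all, limma gave 0 members here, 1 at an unadjusted p under 0.05, against 0.492% of genes. Set against steady-state dermal DCs, P5 macrophages had less Cd80, 7.96, 7.74 and 7.15 against 8.79, 8.51 and 8.86, a difference of -1.11 log2 units (SE 0.28, adjusted p = 0.011). This was 1 of 9 members where 6.52% of genes were called. Pdcd1lg2 (-1.35, adjusted p = 0.097) and Tnfsf4 (-1.27, 0.074) did not pass. The Cd80 call was lost with the 2 groups fitted alone (adjusted p = 0.061), with the marker covariates (0.064), without the third P5 array (0.10) and without the third dermal DC array (0.050, just over the bound). Pdcd1lg2 passed without the first dermal DC array (0.015), and Tnfsf4 passed without the third (0.014).

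DCs of the lymph node were compared with DCs of the dermis, the tissue from which migratory DCs come. At steady state members differed in both directions. Node DCs had more Cd200 (6.50-fold, log2 difference 2.70, SE 0.36, adjusted p = 1.1e-06), Cd40 (3.43-fold, 1.78, SE 0.23, 8.1e-07) and Cd274 (2.42-fold, 1.28, SE 0.27, 0.00077). They had less Cd80 (4.84-fold, -2.28, SE 0.28, 2.0e-07), Cd86 (3.24-fold, -1.70, SE 0.26, 1.0e-05) and Cd83 (1.80-fold, -0.84, SE 0.25, 0.016). The share of all genes called was 20.3%. The arrays of the 2 groups did not overlap for any of these 6 members. The share of all genes without overlap was not counted in this or any other comparison. Icosl was 0.84 log2 units higher in node DCs (adjusted p = 0.072), also without overlap, and passed after quantile normalization (0.024) and with the 2 groups fitted alone (0.0039). Pdcd1lg2 and Tnfsf4 overlapped, with 95% intervals of the difference of -0.43 to 1.52 and -0.42 to 1.31. Node and ear were digested with different enzymes, so tissue and digestion cannot be told apart, and the keratinocyte marker mean was 6.33 to 6.93 in these dermal DCs and 4.37 to 4.74 in the node populations. With the keratinocyte and fibroblast covariates the Cd83 difference was -0.89 with a wider error (SE 0.37, adjusted p = 0.10). Its call was also lost without the first dermal DC array (0.058) and without the third node DC array (0.12).

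After DNFB the same comparison gave 6 members, with 17.5% of all genes called. Cd200 was 8.67-fold higher in node DCs (3.12, SE 0.36, adjusted p = 1.1e-07), Cd40 4.38-fold (2.13, SE 0.23, 3.7e-08), Icosl 2.64-fold (1.40, SE 0.33, 0.0020) and Cd274 2.40-fold (1.26, SE 0.27, 0.00094). Tnfsf4 was 16.0-fold lower in node DCs (-4.00, SE 0.42, 1.8e-08) and Cd83 was 1.71-fold lower (-0.77, SE 0.25, 0.033). Cd86 overlapped between the tissues, with a 95% interval of -0.21 to 0.87. Cd80 was 0.62 log2 units lower in node DCs (adjusted p = 0.14) and passed when averaged over its probe sets (-1.05, 0.0074) or with array weights (-0.63, 0.039). Pdcd1lg2 was 0.96 higher (0.20) and passed with the 2 groups fitted alone (0.026). The Cd83 call was lost without dermal DC array 1 (adjusted p = 0.062) or 3 (0.16) or node DC array 2 (0.15) or 3 (0.056).

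**Figure D2:**
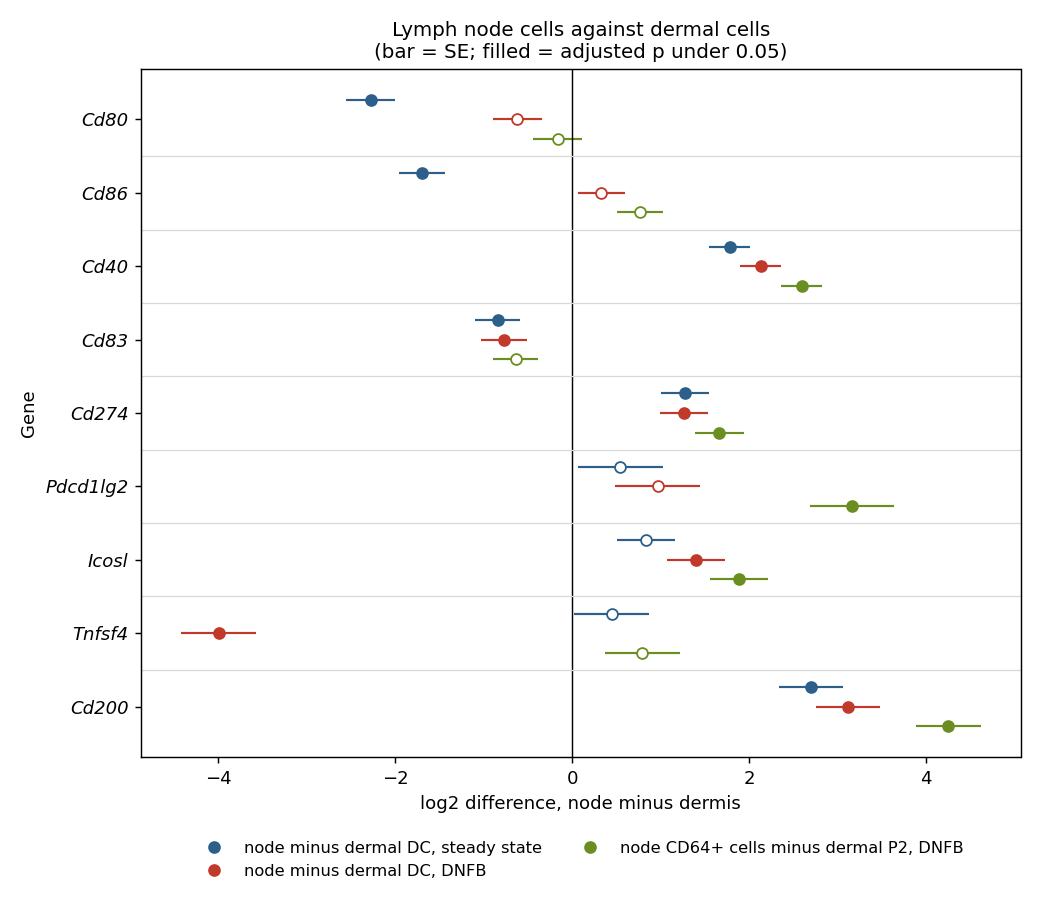
Log2 difference of each member (horizontal axis; bars are standard errors, filled points have an adjusted p under 0.05) between node and dermal DCs at steady state and after DNFB and between node CD64+ cells and dermal P2 after DNFB. Cd40, Cd274 and Cd200 lay to the right of 0 in all 3 comparisons, and Tnfsf4 lay at -4.00 for DCs after DNFB.

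Each population sorted after DNFB was compared with the same gate of untreated animals. In P1 no member passed (limma; 0 of 9, 1 at an unadjusted p under 0.05, 0.637% of genes called). The 1 was Cd274, at 8.39 on both arrays after DNFB against 7.42 to 7.61 (difference 0.85, adjusted p = 0.26). In P2 Tnfsf4 was 2.98-fold higher after DNFB (1.57, SE 0.42, adjusted p = 0.045), 1 of 9 members with 2.02% of genes called. Steady-state P2 was at low signal for Tnfsf4, where these values are compressed, so this fold is the measured one and its true size is not known. The monocyte marker mean was 8.79 to 9.40 at steady state and 9.95 to 10.39 after DNFB, the fibroblast mean 8.11 to 8.34 and then 6.51 to 7.05, and 3 of 12 keratinocyte markers fell. Its call was lost when any array but the second DNFB array was left out of these groups (adjusted p = 0.076 to 0.23), with array medians centred (0.052), with the 2 groups fitted alone (0.20), with the keratinocyte and fibroblast covariates (1.43, 0.30) and with the replicate number as a block (0.058). Cd80 was 0.83 log2 units higher in P2 (adjusted p = 0.14) and Cd83 0.70 lower (difference -0.70, adjusted p = 0.19), each without overlap of the arrays and without passing.

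In dermal DCs Tnfsf4 had the largest DNFB difference of any member, 24.1-fold (4.59, SE 0.42, adjusted p = 2.2e-08). Its steady-state dermal DC arrays ran from 4.14, under the low-signal bound, to 6.48 (SD 1.23, n = 3). The size of this fold, and of the Tnfsf4 interactions below, is therefore not well determined. Cd274 was 2.73-fold higher (1.45, SE 0.27, adjusted p = 0.0011) and Cd200 was 2.63-fold higher (1.40, SE 0.36, 0.021), which made 3 of 9 members with 4.16% of genes called. At an unadjusted p under 0.05 there were 5 members, the others being Cd80, 0.60 higher (adjusted p = 0.32), and Cd83 (difference -0.54, 0.33). Neither overlapped between the groups or passed. Cd86 and Cd40 overlapped, with 95% intervals of -0.39 to 0.68 and -0.32 to 0.64. The third array after DNFB read 5.47 for Cd200, against 6.89 and 6.63 on the others. The Cd200 call was lost with the 2 groups fitted alone (adjusted p = 0.077), without steady-state array 1 (0.076) or 3 (0.073) and without DNFB array 1 (0.17) or 2 (0.11). T cell markers moved with Tnfsf4 here: the mean of 6 markers was 4.32 to 4.95 at steady state and 4.80 to 5.34 after DNFB. Cd3d read 3.04 to 3.64 and then 4.30 to 5.66, Cd3g 3.23 to 3.71 and then 4.27 to 5.32, and Cd3e 5.21 to 6.64 and then 6.25 to 6.57. Cd5 read 4.09 to 4.74 and then 5.39 to 6.09. Cd2 was lower after DNFB, 7.56 to 8.89 and then 5.73 to 5.99, and Trat1 stayed at low signal. The mean of 5 monocyte markers was 5.43 to 5.96 at steady state and 6.88 to 7.26 after DNFB (2 rose), and that of 12 keratinocyte markers 6.33 to 6.93 and then 5.20 to 5.86 (2 fell). All 3 member calls held with the keratinocyte and fibroblast covariates, and the part of the T cell and monocyte markers in the Tnfsf4, Cd274 and Cd200 differences was not tested.

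In node DCs the B7 ligands Cd80 and Cd86 were higher after DNFB than in untreated animals. Cd80 was 4.76-fold higher (2.25, SE 0.28, adjusted p = 8.7e-06) and Cd86 4.51-fold higher (2.17, SE 0.26, 6.4e-06). Cd200 was 3.51-fold higher (1.81, SE 0.36, 0.0046) and Cd274 2.70-fold higher (1.43, SE 0.27, 0.0027). These were 4 of 9 members, all higher, with 1.34% of genes called and 0.903% called higher. Cd40, Pdcd1lg2 and Icosl were also higher on every DNFB array than on any steady-state array, but did not pass. Their 95% intervals were 0.03 to 0.99, -0.18 to 1.77 and 0.12 to 1.46, and the share of all genes separated in this way was not counted. Tnfsf4 overlapped (95% interval -0.72 to 1.02). All 4 calls held in every alternative fit that was run. The mean of 7 DC markers was 6.96 to 7.08 at steady state and 7.46 to 7.75 after DNFB, and 2 of them rose and 1 fell. The part of these markers in the member differences was not tested.

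**Figure D3:**
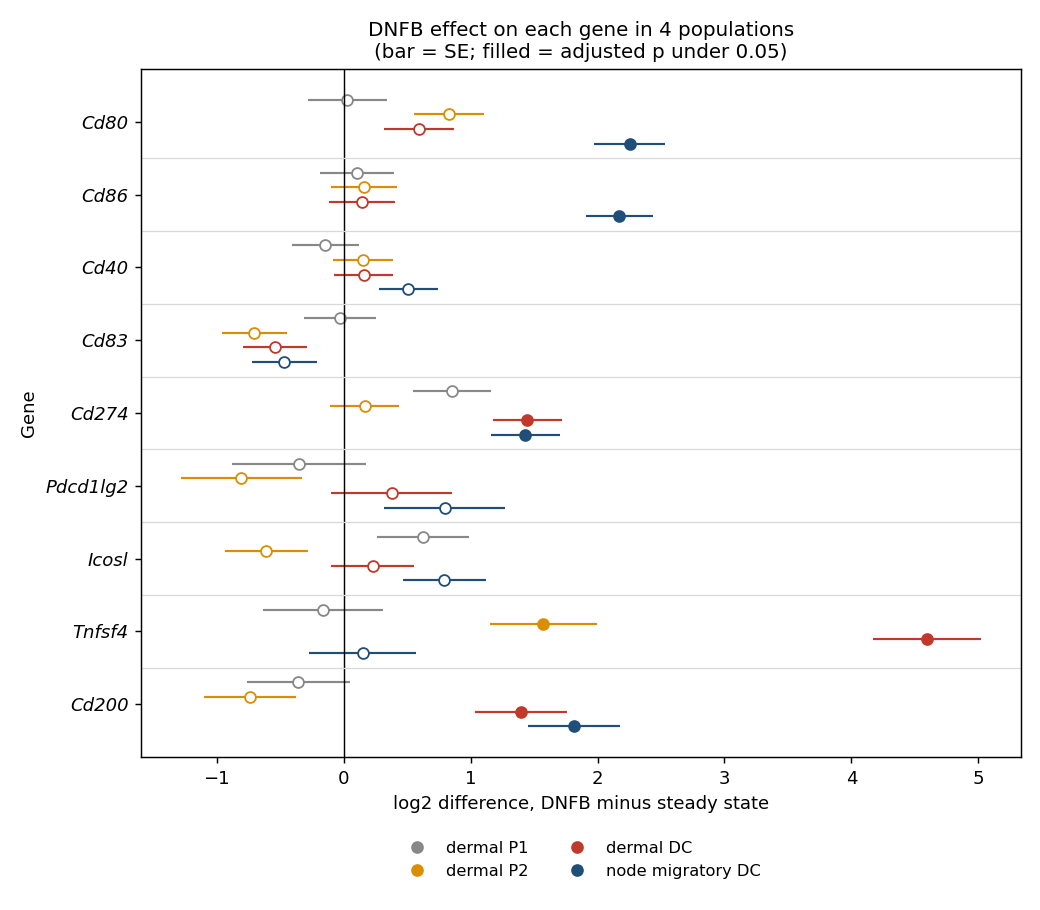
Log2 difference after DNFB (horizontal axis; bars are standard errors, filled points have an adjusted p under 0.05) of each member in dermal P1, dermal P2, dermal DCs and node DCs. Tnfsf4 reached 4.59 in dermal DCs and 1.57 in P2, and Cd80 and Cd86 passed in node DCs at 2.25 and 2.17.

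The DNFB effects of node and dermal DCs were compared directly, as an interaction. Those effects use the same 4 groups as the 2 tissue comparisons, so they are not separate evidence. The effect was larger in node DCs for Cd86 (2.03, SE 0.37, adjusted p = 0.0024) and Cd80 (1.66, SE 0.39, 0.024) and smaller for Tnfsf4 (-4.44, SE 0.60, 5.7e-05). Thus 3 of 9 members passed, with 1.31% of genes called. The Cd274 effects were 1.45 and 1.43, and the 95% interval of their difference was -0.81 to 0.78. For Cd200 the interval was -0.64 to 1.47. The Cd80 call was lost when the probe sets were averaged (1.29, adjusted p = 0.13) and when any of 7 single arrays was left out (0.059 to 0.076), those being dermal DC 1 and 3 at steady state, dermal DC 2 and 3 after DNFB, node DC 2 at steady state and node DC 1 and 3 after DNFB.

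Between dermal DCs and P2 after DNFB, the DCs had more Tnfsf4 (21.8-fold, 4.45, SE 0.42, adjusted p = 2.7e-08), Icosl (2.84-fold, 1.51, SE 0.33, 0.0048), Cd200 (2.91-fold, 1.54, SE 0.36, 0.010) and Pdcd1lg2 (3.83-fold, 1.94, SE 0.47, 0.015). That made 4 of 9 members, with 3.38% of genes called. With the marker covariates Pdcd1lg2 (1.74, adjusted p = 0.15) and Icosl (1.30, 0.10) were not called. Cd200 was not called with the 2 groups fitted alone (0.085) or without the third P2 array (0.077) or DC array 1 (0.11) or 2 (0.071), and Pdcd1lg2 was not called without P2 array 2 (0.091) or DC array 3 (0.088). The DNFB effect itself differed between dermal DCs and P2 for Tnfsf4 (3.02, SE 0.60, adjusted p = 0.018), 1 of 9 members with 0.251% of genes called. That call was lost with the groups fitted alone (0.24) and without any of 6 single arrays (0.054 to 0.083), P2 2 or 3 or dermal DC 1 or 3 at steady state, and P2 2 or dermal DC 1 after DNFB. The Cd200 interaction did not pass (adjusted p = 0.076), but did with array weights (0.036) and without the third dermal DC array after DNFB (0.018).

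After DNFB node CD64+ cells and node DCs came from the same tissue and differ by Ly6C and CD64. No member was called between them (limma; 0 of 9), 1 at an unadjusted p under 0.05, with 4.82% of genes called. Cd40 (95% interval -0.53 to 0.43), Cd86 (-0.52 to 0.55) and Cd200 (-1.15 to 0.34) overlapped. Icosl was 1.02 log2 units lower in the CD64+ cells (difference -1.02, adjusted p = 0.075), and passed after quantile normalization (0.026), with array weights (0.033) and without CD64+ array 1 (0.037) or 2 (0.035).

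Against P2, the dermal CD64+ Ly6C high population after DNFB, node CD64+ cells had more of 5 members, with 12.6% of genes called and 7.26% called higher. Cd200 was 19.1-fold higher (4.25, SE 0.36, adjusted p = 4.9e-10), Pdcd1lg2 8.99-fold (3.17, SE 0.47, 1.1e-05) and Cd40 6.03-fold (2.59, SE 0.23, 1.6e-09). Icosl was 3.70-fold higher (1.89, SE 0.33, 8.6e-05) and Cd274 3.17-fold higher (1.66, SE 0.27, 4.3e-05). Icosl alone was not called with the marker covariates (1.65, SE 0.54, adjusted p = 0.062). Cd86 was 0.77 log2 units higher (adjusted p = 0.052), and was called without the third CD64+ array (1.10, 0.0038), without the third P2 array (1.13, 0.0023), with array weights (0.017), with low values left out (0.041) and with trended variances (0.044). Cd83 was 0.64 lower (difference -0.64, adjusted p = 0.11), and passed without the second P2 array (0.050) or the first CD64+ array (0.045). Marker lists moved with these members between the 2 gates: of 7 DC markers 5 rose and 1 fell (list mean 6.91 to 7.72 in node CD64+ cells, 5.48 to 6.48 in P2), and of 5 monocyte markers 4 fell (6.55 to 6.83 and 9.95 to 10.39). Of 12 keratinocyte markers 6 fell (4.37 to 4.46 and 5.77 to 7.39), of 10 fibroblast markers 5 fell (4.39 to 4.65 and 6.51 to 7.05), and of 7 macrophage markers 1 rose and 1 fell (8.03 to 8.95 and 7.64 to 9.03). Beyond the covariate fit for the keratinocyte and fibroblast lists, their part in the member differences was not tested. As for the DCs, node and ear were digested with different enzymes, so tissue and digestion cannot be told apart.

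The genes through which CD40 signals were read beside it. Of 14 measured genes of CD40 and NF-kB signalling, 8 rose and 1 fell in node DCs against dermal DCs at steady state (median log2 difference 0.77, and 0.05 over all genes), where 20.3% of all genes were called and 10.1% were higher. Relb (2.33) and Nfkb2 (1.49), the partners of the non-canonical NF-kB arm, and Birc3 (1.29) and the survival gene Bcl2l1 (1.42) were higher, and Rel was lower (-0.69). After DNFB 5 rose and 2 fell (median 0.57, and 0.04 over all genes), where 17.5% of all genes were called, 8.44% higher and 9.04% lower. Relb was at 2.31, Nfkb2 at 1.43 and Map3k14, the kinase gene of that arm, at -0.99. In node CD64+ cells against P2, 6 rose and 3 fell, where 12.6% of all genes were called and 7.26% were higher. The median was 0.59 against -0.02 over all genes (Relb 2.14, Nfkb2 1.28, Traf1 1.62, and 1.89 with the marker covariates, adjusted p = 0.060). These named genes all rose, and the 3 that fell are not named. DNFB raised Map3k14 in dermal DCs (1.11, adjusted p = 0.00076), and the effects in the 2 DC populations differed (-1.86, 0.00037). With the marker covariates Birc3 (0.52, adjusted p = 0.32), Bcl2l1 (0.93, 0.15) and Rel (-0.59, 0.21) were not called in the steady-state comparison, and Relb and Nfkb2 were.

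Other DC maturation genes were read in the same comparisons. Of 10 measured, 6 rose and 0 fell in node DCs against dermal DCs at steady state, where 10.1% of all genes were higher (list median 1.36, all genes 0.05). After DNFB 7 rose and 0 fell, where 8.44% of all genes were higher (1.16 and 0.04). Fscn1, an actin-bundling protein of mature DCs, was higher by 5.53 at steady state, Socs2 by 4.57, Il15ra by 4.40 and Ccl22 by 2.00. In node CD64+ cells against P2, 9 rose and 0 fell, where 7.26% of all genes were higher (median 2.63, all genes -0.02). Ccl17 rose by 5.78 log2 units. In dermal DCs DNFB raised Fscn1 (2.45) and Ccr7, the receptor for lymph node homing (1.05), and lowered Ccl17 (-1.47) and Ebi3 (-0.89). Without 1 array the Ccr7 call was lost for 4 arrays (adjusted p = 0.056 to 0.11) and the Ebi3 call for 3 (0.072 to 0.12). In P2 it lowered Ccl17 (-4.31) and Ccl22 (-1.83). The list was chosen with results of these arrays known, so its direction is no separate evidence.

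**Figure D4:**
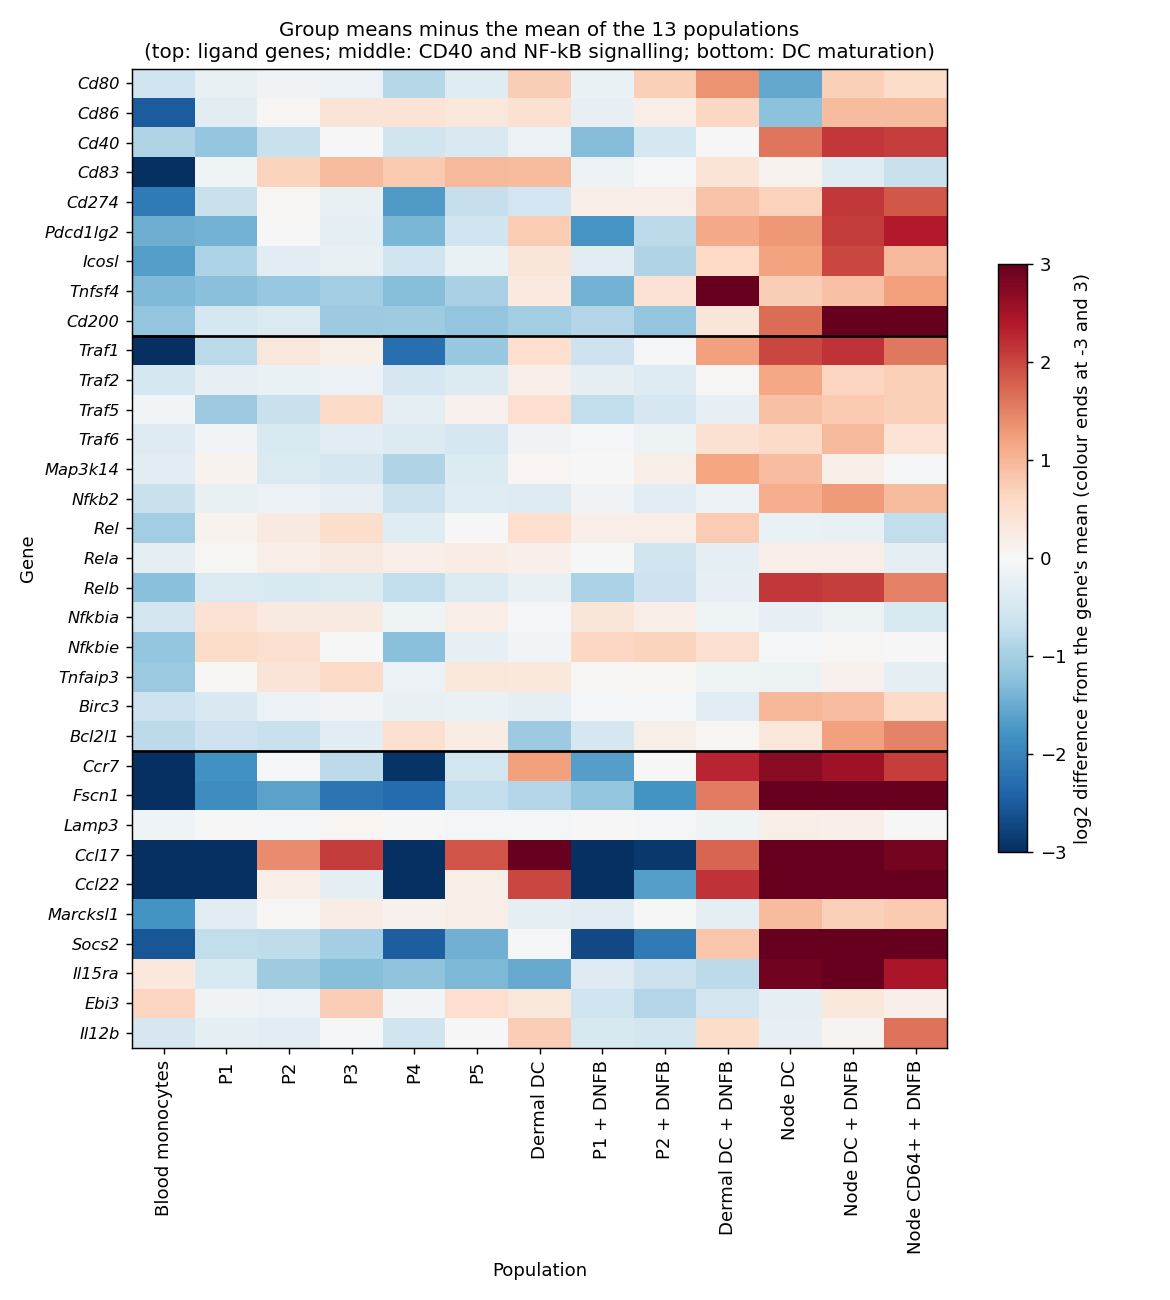
Group means of each gene minus its mean over the 13 populations (colour, log2 units, ending at -3 and 3) for the 9 members, 14 genes of CD40 and NF-kB signalling and 10 DC maturation genes. Cd40, Relb, Nfkb2, Fscn1, Socs2 and Il15ra were above their means in the 3 node populations.

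Of 14 other ligands of the B7 and TNF families, 1 rose and 4 fell in node DCs against dermal DCs at steady state, where 10.1% of all genes were lower (list median -0.02, all genes 0.05). Tnfsf9, which encodes 4-1BB ligand, was lower by 4.34 log2 units (difference -4.34), Tnfsf14 by 3.27 (-3.27), Tnf by 1.74 (-1.74) and Vsir, which encodes VISTA, by 1.70 (-1.70). After DNFB Cd70, the CD27 ligand gene, was higher in node DCs (1.15) and Tnfsf9 lower (-2.41). DNFB raised Tnfsf9 (2.04) and Cd70 (0.93) in node DCs, and the Tnfsf9 effect differed from that in dermal DCs (1.93, adjusted p = 0.022), but not when 1 of 6 arrays was left out (0.053 to 0.062). In P1 against blood, Tnfsf9 (5.06) and Tnf (1.96) rose and Tnfsf10 (-1.19) and Vsir (-1.20) fell. With the marker covariates Tnf (2.01, adjusted p = 0.083), Tnfsf10 (-1.11, 0.28) and Vsir (-0.92, 0.74) were not called there, and with the groups fitted alone Cd70 was not called in node DCs after DNFB (0.097).

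Of 11 other inhibitory ligands and suppressive enzymes, 2 rose and 2 fell in node DCs against dermal DCs at steady state, where 20.3% of all genes were called: Fgl2 (1.26) and Tnfrsf14, which encodes the BTLA ligand HVEM (0.96), against the galectin gene Lgals9 (-2.13) and Ceacam1 (-1.76). DNFB raised Btla in dermal DCs (1.29) and in node DCs (1.11), and Arg1, the arginase gene, in P1 (2.18) and P2 (1.03). Of the 10 measured receptors of the members, DNFB raised Ctla4 (2.53) and Icos (1.90) in dermal DCs, beside the T cell markers given above, and Ctla4 in P2 (1.78). In node DCs against dermal DCs at steady state Tnfrsf4, which encodes OX40 (3.32), Icos (2.50) and Cd40lg (0.37) were higher, and Cd200r1 was lower (-2.78). Thus 3 of the 10 receptors rose and 1 fell, where 20.3% of all genes were called. Of the 6 T cell markers 1 rose and 1 fell in that comparison, with a median difference of 0.17, and their part in these receptor differences was not tested. Of 4 genes of surface turnover, Marchf1, a ubiquitin ligase gene that removes CD86 and class II from the surface, was lower in node DCs at steady state (-1.02) and after DNFB (-1.19), and Cmtm6, which keeps PD-L1 at the surface, was lower at steady state (-0.66). These were 2 of 4 genes at steady state and 1 of 4 after DNFB, where 10.1% and 9.04% of all genes were lower. With the groups fitted alone the DNFB calls of Arg1 in both populations, of Ctla4 in P2 and of Btla in node DCs were lost (adjusted p = 0.097 to 0.34), as were those of Tnfrsf14 (0.064) and Cd40lg (0.064) between the tissues at steady state. With the marker covariates Fgl2 was not called (0.57, 0.19), and with quantile normalization Cmtm6 was not (0.068).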

How the data were processed

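RNA of 38 sorted samples was amplified, labelled and hybridised to Affymetrix Mouse Gene 1.0 ST arrays, per the labels' protocols. The authors deposited log2 intensities of 34760 probe sets; RMA and the affy package are named in the submitters' processing notes without versions or settings. RMA subtracts background, quantile-normalises and summarises probes, which compresses low values. Values ran from 1.65 to 13.8, and array medians from 4.39 to 4.65. The labels give 3 chip batches without tying arrays to them, so batch could not be fitted. RNA came from 5000 to 10000 cells per sample. Genes were named from the platform annotation: 21640 probe sets had 1 symbol, 1321 several and 11799 none. The probe set with the highest mean stood for its gene, which gave 19937 genes. A mean per population was fitted over all arrays with limma 3.58.1 in R 4.3.3 (lmFit, contrasts, eBayes), in 17 comparisons, of which 2 were interactions. P-values were adjusted by Benjamini-Hochberg over all genes within a comparison, and a gene was called at an adjusted p under 0.05; every adjusted p in the text is from limma. Intervals are 95% from the same fit. On simulated data for dermal DCs with DNFB, 72 of 100 genes changed 1 log2 unit and 94 of 100 changed 2 were called, with 7 of the unchanged genes; for node against dermal DCs at steady state these were 75, 96 and 4. No changed gene was called in the wrong direction. The changed genes, 100 of each size, were drawn at random from all genes, with independent normal noise and no other group difference. Fewer genes differed than were called in the real comparisons, so these rates do not give the sensitivity for the members. No depth applies to arrays: their number limits the precision. The text names all members and the genes whose 13 means correlated best with a member. From each related list up to 4 called genes per direction and comparison, those with the smallest adjusted p, could be named. Not all of these are named in the text. Members and lists were chosen with earlier results of these data known. Alternatives were another normalization, array weights, blocks, marker covariates, fewer samples and other variances. Listed genes without a probe set of their own were not analysed here.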

Additional observations from a re-analysis of the deposited data

Results flagged for a closer look

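The DNFB effect differed between node and dermal DCs, by an interaction term in limma, for Cd80 (1.66 log2 units), Cd86 (2.03) and Tnfsf4 (-4.44), and between dermal DCs and P2 for Tnfsf4 (3.02), with steady-state P2 at low signal. For 3 members every DNFB array lay on one side of the steady-state arrays in one population and on the other side in node DCs. The contrasts between the populations were not tested, and the share of all genes with such a pattern was not counted. With 2 or 3 arrays a group, the separation alone is weak evidence. Pdcd1lg2 was lower in P1 (-0.35, adjusted p = 0.90) and higher in node DCs (0.80, 0.74). Its 2 P1 arrays after DNFB read 4.28 and 4.40, near the low-signal bound. Icosl was lower in P2 (-0.61, adjusted p = 0.49) and higher in node DCs (0.79, 0.42). Cd200 was lower in P2 (-0.74, adjusted p = 0.43) and higher in node DCs (1.81, 0.0046).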

How the results depend on the processing

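Of the 37 calls of a member in a comparison, 24 held in every alternative fit and 13 were lost in at least one; quantile normalization, leaving out low values, trended variances, array weights and a random block on the number in the source names lost none. Marker covariates lost 8 calls, groups fitted alone 5, and leaving out single arrays 9. Counts of members called that moved by over 1.5 times were these. With the marker covariates P1 against blood had 1, P5 against dermal DCs 0, DNFB in P2 0 and dermal DCs against P2 2. With the groups fitted alone P5 against dermal DCs, DNFB in P2 and the interaction of dermal DCs and P2 each had 0. Averaged probe sets gave 1 for dermal DCs against P3, and centred medians gave 0 for DNFB in P2. Node CD64+ cells against node DCs had 1 after quantile normalization and 1 with array weights, and array weights gave 2 for the interaction of dermal DCs and P2. Without single arrays the counts ranged from 0 to 1 for dermal DCs against P3, P5 against P4, DNFB in P2 and node CD64+ cells against node DCs, and from 0 to 2 for P5 against dermal DCs and the interaction of dermal DCs and P2. The other counts moved by 1 call at most in any fit. One value reversed: Cd200 in P1 against blood, not called, was -0.26 with the covariates. The causes were not tested. Replicate numbers showed no pairing on average: deviations of same-numbered arrays correlated at -0.00141 over 222 pairs, 10.4% of them over 0.1. For the number in the source names the average was 0.0199 over 143 pairs, 16.8% of them over 0.1. With 2 or 3 arrays a group, these averages cannot show whether populations came from the same pools. The replicate block left DNFB in P2 with 0 members, as Tnfsf4 had an adjusted p of 0.058, and changed no other call of a member. With 2 or 3 arrays a group, differences near 1 log2 unit can be missed, and Tnfsf4 at low signal has no reliable order among populations.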
